A study of Mus musculus with 21 samples.

Results

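Transcripts of 48 genes that copy DNA or take a cell from the G1 phase into S phase were measured in germinal centre B cells of mice with and without PTBP1, a protein that binds pyrimidine-rich RNA. The genes were chosen by name, with earlier results of these data known, and each was matched through its Ensembl identifier, giving 48 of the 47729 identifiers in the count files. The mRNA data held 16 libraries in 4 groups of 4: light zone (LZ) control, LZ cKO, dark zone (DZ) control and DZ cKO, all of C57BL/6 background. Control mice were CD79a+/+Ptbp1fl/fl and conditional knockout (cKO) mice CD79acre/+Ptbp1fl/fl, so both carried the floxed Ptbp1 alleles and only the cKO mice carried Cre, placed in 1 Cd79a allele and active in the B lineage. Effects of the Cre allele and of the loss of PTBP1 therefore cannot be told apart. Mice were taken 7 days after NP-KLH in alum, and each pool of 3 to 5 spleens of 1 genotype and 1 sex gave 1 light zone and 1 dark zone library. Pools with the same number were sorted on the same day, with males on days 1 and 2 and females on days 3 and 4, so day, sex and animals cannot be told apart. The labels give no age. In addition, 5 iCLIP libraries recorded where PTBP1 touches RNA in splenic B cells cultured for 48 h with lipopolysaccharide.

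Gene counts summed to 26823882 to 34240096 per library, and all 48 genes were among the 15789 that passed the filter on low counts. Ptbp1, the targeted gene, was at 353 to 420 CPM (counts per library size, scaled by TMM) in LZ control and 82.5 to 121 CPM in LZ cKO libraries. Its dark zone range was 416 to 486 CPM in control and 92.1 to 114 CPM in cKO libraries. Zone labels matched their markers, since 9 of 10 light zone markers were higher in the light zone in each genotype (edgeR, adjusted p under 0.05), while 4 of 8 dark zone markers in control and 5 of 8 in cKO cells were lower. B lineage genes summed to 6320 to 10700 CPM in every library, against 13.9 to 232 CPM for T cell genes.

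Cells license origins of replication in G1, when the origin recognition complex, CDC6 and CDT1 load the MCM helicase on DNA. Cyclin E and its kinase then release E2F factors from the retinoblastoma protein, and E2F factors drive transcription of many replication genes. In germinal centres, B cells divide mainly in the dark zone, after they have received help from T cells in the light zone, where part of them enter S phase.

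E2F factors bind the promoters of many replication genes, so 5 promoters are printed, 2 with E2F words and 3 without. They are the bases before the transcription start that lie in no gene, from RefSeq on GRCm38.p6 and read on the gene's strand. The helicase genes Mcm5 (chr8:75109259-75109467, plus strand) and Mcm6 (chr1:128359706-128359955, minus strand) carry E2F words. Pcna (chr2:132253181-132253337, minus strand), Orc6 (chr8:85299518-85299631, plus strand) and Rfc4 (chr16:23127731-23127980, minus strand) carry none. Capitals mark E2F words and CCAAT boxes on either strand, and touching or overlapping matches run together.
Mcm5: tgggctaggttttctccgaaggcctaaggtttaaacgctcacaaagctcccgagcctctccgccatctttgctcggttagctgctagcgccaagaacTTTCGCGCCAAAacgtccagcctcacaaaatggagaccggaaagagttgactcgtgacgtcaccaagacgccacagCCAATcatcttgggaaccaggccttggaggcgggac
Mcm6: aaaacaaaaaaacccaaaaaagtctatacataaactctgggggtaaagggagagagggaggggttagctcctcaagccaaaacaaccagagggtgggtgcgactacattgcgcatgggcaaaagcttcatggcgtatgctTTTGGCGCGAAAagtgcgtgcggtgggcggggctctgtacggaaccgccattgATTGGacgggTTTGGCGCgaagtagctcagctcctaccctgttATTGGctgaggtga
Pcna: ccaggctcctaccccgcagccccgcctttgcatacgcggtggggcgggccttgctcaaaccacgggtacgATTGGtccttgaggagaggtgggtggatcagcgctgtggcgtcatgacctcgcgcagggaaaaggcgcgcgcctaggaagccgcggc
Orc6: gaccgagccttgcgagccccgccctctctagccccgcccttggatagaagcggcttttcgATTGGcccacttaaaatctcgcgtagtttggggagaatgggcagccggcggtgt
Rfc4: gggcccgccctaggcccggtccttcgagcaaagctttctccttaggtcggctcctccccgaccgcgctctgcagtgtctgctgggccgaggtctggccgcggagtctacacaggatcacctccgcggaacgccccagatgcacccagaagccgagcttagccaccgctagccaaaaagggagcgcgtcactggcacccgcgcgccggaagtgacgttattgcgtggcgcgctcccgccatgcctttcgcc

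RefSeq promoter windows of 300 bases, 250 before to 50 after a start, were found for 38 of the 48 genes. The E2F words searched were TTTCCCGC, TTTGGCGC, TTTCGCGC and TTTGCCGC, on both strands. At least 1 word stood in a window of 16 of the 38 genes, or 42.1% (exact 95% interval 26.3% to 59.2%, counting error only), against 2.6% of 27025 genes with such windows and 3.29% of 17492 coding genes. The 16 genes were Cdc6, Cdt1, Clspn, E2f2, Gins3, Lig1, Mcm3, Mcm5, Mcm6, Mcm7, Orc1, Pola1, Pold1, Pole2, Rfc3 and Uhrf1. Their 22 matches began between 185 bases before and 39 bases after the start, and none shared bases with a GC box. The CCAAT box, in the letters CCAAT, was in 65.8% of the 38 genes and 42.3% of coding genes, and the GC box GGGCGG in 73.7% and 49.2%. TTTGAA, the word of the CHR element found at many genes of G2 and mitosis, was in 15.8% of the 38 genes against 18.5% of coding genes. A match of letters is a description of the window, not a site.

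The 48 genes were at their lowest in light zone cells of male cKO mice. In LZ control libraries 1 to 4 their levels summed to 8505, 8518, 10910 and 10722 CPM, and in LZ cKO libraries to 6268, 6084, 9621 and 8786 CPM. The DZ control sums were 10616, 10217, 11394 and 12347 CPM, and those of DZ cKO libraries 9833, 8462, 11914 and 10066 CPM. Within each light zone sort day the cKO library was the lower one, while the ranges of the groups overlapped in both zones. The group means were 9664 ± 1333 CPM (SD, n = 4) in LZ control, 7690 ± 1782 in LZ cKO, 11144 ± 939 in DZ control and 10069 ± 1419 in DZ cKO cells. In bulk libraries, fewer cycling cells and less RNA of these genes per cell cannot be told apart.

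**Figure D1:**
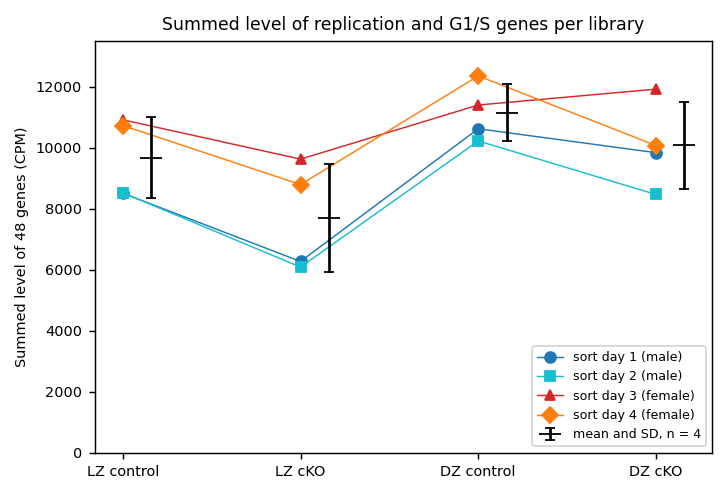
Summed level of the 48 replication and G1/S genes in each library (CPM, linear axis from 0), with lines joining libraries of the same sort day and black bars giving group mean and SD (n = 4). LZ cKO libraries 1 and 2 sit at 6268 and 6084 CPM, under all other libraries.

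LZ cKO library 2 was the lowest of all 16 libraries for 32 of the 48 genes, and LZ cKO library 1 for a further 12. The pair were the 2 lowest libraries for 36 of the 48 genes, against 6.31% of all genes tested. The 2 libraries also stood apart in markers of other B cells. A list of 8 naive and memory B cell genes summed to 2440 and 2780 CPM in them and 1390 to 1960 CPM in the other LZ libraries.

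The comparison of cKO with control cells in the light zone asks how the loss of PTBP1 goes with the replication programme in cells under selection. The log2 fold change was negative for 47 of the 48 genes, with a median of -0.34 against 0.02 over all genes tested, of which 47.5% were negative. Values ran from -0.58 for Dscc1 to 0.03 for Orc2. None of the 48 passed the test across all genes (edgeR quasi-likelihood test, Benjamini-Hochberg adjusted p under 0.05; 1.08% of all genes passed), and the smallest adjusted p was 0.168, for Pold2. At an unadjusted p under 0.05, 22 genes were lower and 0 higher, against 13.4% of all genes in either direction, and DESeq2 called 0. With the sort day as a block, 20 were lower and 0 higher (2.77% of all genes lower). The fits with and without this block counted the 2 libraries of a pool as independent. Of the 48 genes, 41 were lower in the cKO library on all 4 sort days, against 15.2% of all genes.

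The blocked count depended on single libraries. It was 0 without sort day 2, 2 without LZ control library 2 or without LZ cKO library 1 or 2, and 3 without LZ control library 4. It was 5 without day 4, 8 without LZ control library 3, and 9 without LZ control library 1, day 1 or day 3. It was 12 with scaling by library size alone, 29 with DESeq2 and the block, and at least 16 without LZ cKO library 3 or 4. The share of all genes called was not counted in these settings.

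Among the genes that load and form the helicase, 10 of 11 had a negative value in the light zone, and 3 of the 11 were called with the block. Mcm5 encodes a subunit of the MCM helicase ring. It was at 592, 524, 818 and 741 CPM in LZ control libraries 1 to 4 and at 391, 368, 648 and 578 CPM in LZ cKO libraries. Each cKO library was below the control of its day, but cKO libraries 3 and 4 lay within the control range. Its log2 fold change was -0.43 ± 0.19 (SE; edgeR adjusted p = 0.346, blocked 0.0179, which is the value with the sort day as a block).

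Mcm6, another subunit of the ring, was at 699.9, 778, 1012 and 1005 CPM in LZ control and 459, 529, 917 and 739 CPM in LZ cKO libraries. The groups overlapped, and the value was -0.40 ± 0.20 (edgeR adjusted p = 0.399, blocked 0.0347). Orc6, the smallest subunit of the origin recognition complex, was at 105, 90.3, 107 and 105 CPM in control libraries and at 81.4, 56.3, 85.8 and 95.7 CPM in cKO libraries. Only cKO library 4 reached into the control range (-0.35 ± 0.14, edgeR adjusted p = 0.295, blocked 0.0267).

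Orc1, which recruits CDC6 to origins, was at 21.3, 14.3, 25.9 and 18.8 CPM in LZ control and 7.25, 12.1, 19.3 and 16.5 CPM in LZ cKO libraries. It had the second most negative value of the light zone, -0.54 ± 0.27, which passed neither without the block (edgeR adjusted p = 0.399) nor with it (0.117). Orc2, of the same complex, was the one gene of the 48 above 0 there, at 41.9, 42.6, 50.7 and 49.8 CPM in control libraries and at 44.3, 41.9, 53 and 49.7 CPM in cKO libraries.

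The helicase activators, MCM10, CDC45 and the GINS complex, turn the loaded ring into a moving helicase. All 6 had negative values, from -0.52 to -0.22, and 2 were called with the block. Cdc45 was at 114, 104, 129.6 and 135 CPM in LZ control and 76.7, 59.6, 114 and 97.6 CPM in LZ cKO libraries (-0.47 ± 0.18, edgeR adjusted p = 0.242, blocked 0.0147). Gins2 was at 41.7, 39.1, 50.9 and 55.6 CPM against 29.1, 22.7, 42.2 and 37 CPM (-0.52 ± 0.19, edgeR adjusted p = 0.227, blocked 0.0262). For each of them, cKO library 3 was the only one within the control range. The span of Cdc45 overlaps the gene Ufd1, as the spans of 23 of the 48 genes overlap another gene, and whether the counting used strand is not stated.

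The sliding clamp PCNA holds polymerases on DNA, and the RFC complex loads it. In this group all 7 genes had negative values (median -0.39), and 6 of 7 were called with the block. Pcna was at 317, 276, 368 and 379 CPM in LZ control and 225, 175, 289 and 276 CPM in LZ cKO libraries. It had the lowest blocked adjusted p of the 48 genes (0.00722), with a value of -0.47 ± 0.16 and an edgeR adjusted p of 0.191 without the block. Libraries 3 and 4 of the cKO group reached the level of control library 2.

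Rfc4, a small subunit of the clamp loader, was at 113, 103, 126 and 136 CPM in LZ control and 81.8, 59.9, 102 and 98.7 CPM in LZ cKO libraries. All 4 cKO libraries were below all control libraries (-0.48 ± 0.16, edgeR adjusted p = 0.193, blocked 0.0076). Rfc2 likewise did not overlap, at 508, 470.2, 529 and 516 CPM against 426, 387, 437 and 462 CPM, with a value of -0.24 ± 0.09 (edgeR adjusted p = 0.226, blocked 0.0197). Dscc1, of an alternative loader that acts in sister chromatid cohesion, had the most negative value of the 48, -0.58 ± 0.20 (edgeR adjusted p = 0.202, blocked 0.0469), at 23.5, 24.1, 28.8 and 35.7 CPM against 13.4, 13.4, 22.7 and 25.5 CPM.

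Primase and polymerase α start each new strand, and polymerases δ and ε extend it. All 8 genes had negative values and 3 were called with the block. Pold2, an accessory subunit of polymerase δ, was at 85.3, 97.9, 116 and 115 CPM in LZ control and 72.3, 66.5, 97.7 and 77.2 CPM in LZ cKO libraries (-0.40 ± 0.13, blocked edgeR adjusted p = 0.0193). Prim1, the catalytic subunit of primase, had a value of -0.50 ± 0.16 (edgeR adjusted p = 0.171, blocked 0.0199), and Pold1, the catalytic subunit of polymerase δ, -0.33 ± 0.16 (edgeR adjusted p = 0.387, blocked 0.035). Pold1 was at 296, 312, 415 and 369 CPM in LZ control and 207, 249, 341 and 310.2 CPM in LZ cKO libraries, with overlapping groups. Pole, the catalytic subunit of polymerase ε, was near 0 (-0.01 ± 0.23, edgeR adjusted p = 0.995).

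Of the 5 genes for Okazaki fragment joining and single-stranded DNA, 1 was called with the block. That gene, Lig1, the ligase that joins the fragments, was at 228, 214, 316 and 287 CPM in LZ control and 177, 134, 234 and 227 CPM in LZ cKO libraries (-0.44 ± 0.17, edgeR adjusted p = 0.269, blocked 0.0192). Rpa1, the large subunit of the single-strand binding protein RPA, was at 338, 415, 471 and 458 CPM against 257, 342, 438 and 435 CPM (-0.19 ± 0.17). Fen1, the flap nuclease of the same step, held only 1.45 to 3.5 CPM in any library, or 40 to 113 counts, and its gene overlaps Tmem258.

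Lig1, Ccne1 and Pold1 lie on chromosome 7 with Cd79a, at 11.6, 13.2 and 19.6 Mb from it. The part of the Cre allele's surrounding DNA in their values was not tested.

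The 4 genes of cyclin E and E2F factors had negative values, from -0.44 to -0.08, and 2 were called with the block. Ccne1, a cyclin that activates CDK2, was at 63.4, 57.4, 61.8 and 65.5 CPM in LZ control and 35.5, 32.1, 60.0 and 54.8 CPM in LZ cKO libraries, with a blocked call (-0.44 ± 0.17, edgeR adjusted p = 0.254, blocked 0.0421). Its low cKO libraries were those of days 1 and 2. E2f1, an activating E2F factor, did not overlap between the groups, at 96.5 to 106 CPM in control and 64.5 to 95.6 CPM in cKO libraries (-0.34 ± 0.12, edgeR adjusted p = 0.202, blocked 0.0253). E2f2 was at 186, 204, 169 and 183 CPM against 184, 180.2, 162 and 176 CPM, with a value of -0.08, among the 4 values nearest to or above 0.

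Chromatin assembly and histone supply gave 1 blocked call among 4 genes. Slbp, whose protein binds the stem-loop of histone mRNA, was at 486, 421, 536 and 585 CPM in LZ control and 333, 299, 453 and 478 CPM in LZ cKO libraries (-0.38 ± 0.16, edgeR adjusted p = 0.314, blocked 0.026). Chaf1b, a subunit of the chromatin assembly factor CAF-1, had a value of -0.07 ± 0.17 (edgeR adjusted p = 0.915). Of the 3 fork protection genes, Tipin was at 172, 147, 181 and 190.4 CPM against 109, 88.1, 155 and 149.6 CPM (-0.46 ± 0.17, edgeR adjusted p = 0.227, blocked 0.0194). Its protein pairs with TIMELESS at the fork. Clspn, the checkpoint mediator claspin, had a value of -0.51 ± 0.23 (edgeR adjusted p = 0.362, blocked 0.0496).

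**Figure D2:**
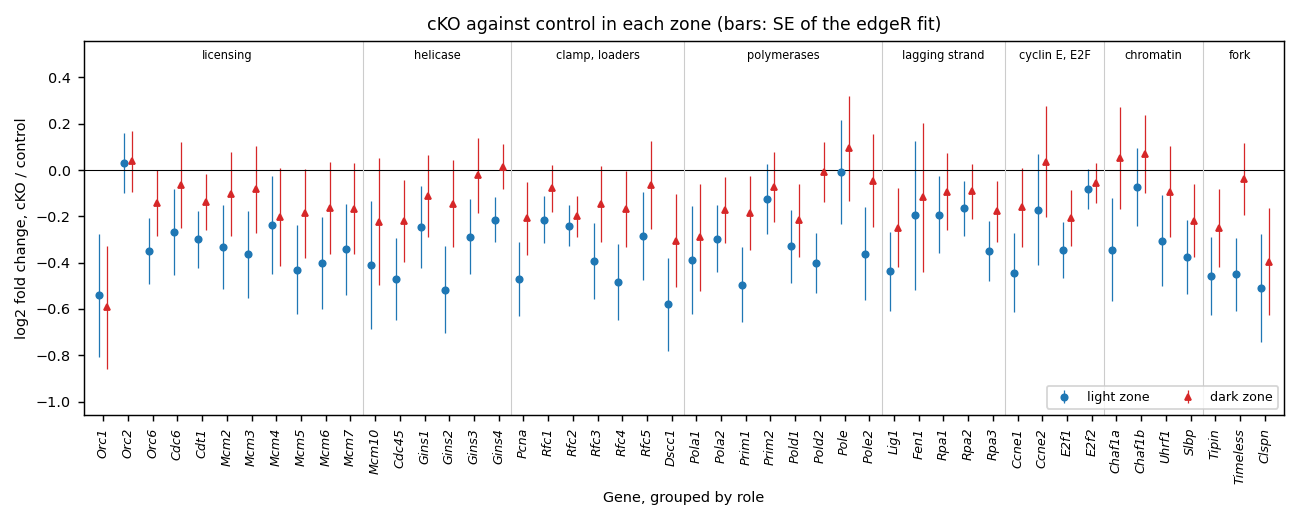
Log2 fold change of cKO over control for each of the 48 genes, grouped by role, in the light zone (circles) and dark zone (triangles), with bars for the SE of the edgeR fit over 16 libraries. Light zone values are below 0 for 47 genes and dark zone values for 42, with medians of -0.34 and -0.14.

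Few genes of the marker lists were called between LZ cKO and LZ control cells. The naive and memory B cell list was at 1960, 1830, 1540 and 1390 CPM in LZ control and 2440, 2780, 1700 and 1590 CPM in LZ cKO libraries, and 1 of its 8 genes, Gpr183, a guidance receptor of activated B cells, was called higher (1.22 ± 0.21, edgeR adjusted p = 0.0105), against 2 of the 8 with the block. Macrophage and monocyte genes, 10 in number, summed to 22.9 to 383 CPM in LZ control and 77.2 to 481 CPM in LZ cKO libraries with 0 called by edgeR without a block (1 higher at an unadjusted p under 0.05, and 1 higher with DESeq2). With the sort-day block, Cd68, a lysosomal protein of macrophages, was called higher (1.15 ± 0.33, blocked edgeR adjusted p = 0.00582). Dendritic cell genes, 7 in number, summed to 74.9 to 104 against 141 to 181 CPM with 1 called, Flt3 (1.14 ± 0.11, edgeR adjusted p = 8.08e-05). Germinal centre B cell genes, 8 in number, summed to 2110 to 2630 against 1810 to 2540 CPM with 1 of 7 tested called lower, Basp1 (-0.74 ± 0.17, edgeR adjusted p = 0.0498). The part of other cells in the lower values was not tested.

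In the dark zone, the log2 fold changes of the 48 genes between cKO and control had a median of -0.14 (all genes 0.01), and 42 of the 48 were negative, against 48.3% of all genes. None passed (edgeR, adjusted p under 0.05, all genes 0.627%), with the smallest adjusted p at 0.395, 2 genes lower at an unadjusted p under 0.05 (all genes 11.4% in either direction), and 0 called by DESeq2. The median changed with the library or day left out, to -0.0633 without DZ cKO library 2, -0.0856 without day 4 and -0.239 without DZ cKO library 3. The sort-day block called 0 as well (all genes lower 1.37%). Of the 48 genes, 12 were lower in the cKO library on all 4 days, against 10.3% of all genes.

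Orc1 had the most negative dark zone value, -0.59 ± 0.27 (edgeR adjusted p = 0.41). It was at 19, 19.4, 22 and 24.2 CPM in DZ control and 10.8, 12.3, 19.8 and 13.2 CPM in DZ cKO libraries, and only cKO library 3 reached into the control range. Clspn followed with -0.40 ± 0.23 (edgeR adjusted p = 0.573) and Dscc1 with -0.30 ± 0.20 (edgeR adjusted p = 0.634). Dscc1 did not overlap between the groups, at 26.4, 28.9, 30.0 and 29.7 CPM in control libraries and at 26.3, 19.2, 23.7 and 23.9 CPM in cKO libraries, though the lowest control and highest cKO library lay side by side. At the other end stood Pole (0.09 ± 0.23, edgeR adjusted p = 0.938), Chaf1b (0.07 ± 0.17, edgeR adjusted p = 0.936) and Chaf1a, the large subunit of CAF-1 (0.05 ± 0.22, edgeR adjusted p = 0.968).

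Pcna was at 383, 307, 379 and 367 CPM in DZ control and 293, 259.8, 392 and 298 CPM in DZ cKO libraries, a difference of -0.21 ± 0.16 (edgeR adjusted p = 0.699). Mcm6 was at 911, 1068, 1175 and 1323 CPM against 955, 814, 1189 and 1039 CPM. Both genes were higher in the cKO library than in the control on day 3, and Mcm6 also on day 1. Macrophage and monocyte genes summed to 14.7 to 394 CPM in DZ control and 42 to 1220 CPM in DZ cKO libraries, and plasma cell genes to 2590 to 7580 and 2280 to 10700 CPM. Of the 10 macrophage and monocyte genes, edgeR called 0 (2 higher at an unadjusted p under 0.05, 1 higher with DESeq2), and the sort-day block 3 higher. Their part in these values was not tested.

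The pools of a day also allow a comparison within each sort day. In the light zone, the cKO sum was 73.7% of the control sum on day 1, 71.4% on day 2, 88.2% on day 3 and 81.9% on day 4. The median difference in log2 CPM was -0.46, -0.51, -0.15 and -0.26 on these days, with 45, 48, 42 and 48 of the 48 genes lower. Light zone medians were further from 0 on the days with males. In the dark zone, the cKO sum was 92.6%, 82.8%, 104.6% and 81.5% of the control sum. The dark zone medians were -0.11, -0.25, 0.05 and -0.26, with 37, 44, 16 and 47 genes lower, and day 3 alone had most genes higher in the cKO library.

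A test of the difference between the sexes in the genotype effect, added after the data had been seen, called none of the 48 genes in either zone (edgeR, 8 libraries a zone). At an unadjusted p under 0.05 it gave 5 genes in the light zone, where 2.81% of all genes passed that level, and 0 in the dark zone (1.73%). DESeq2 was not run for it.

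**Figure D3:**
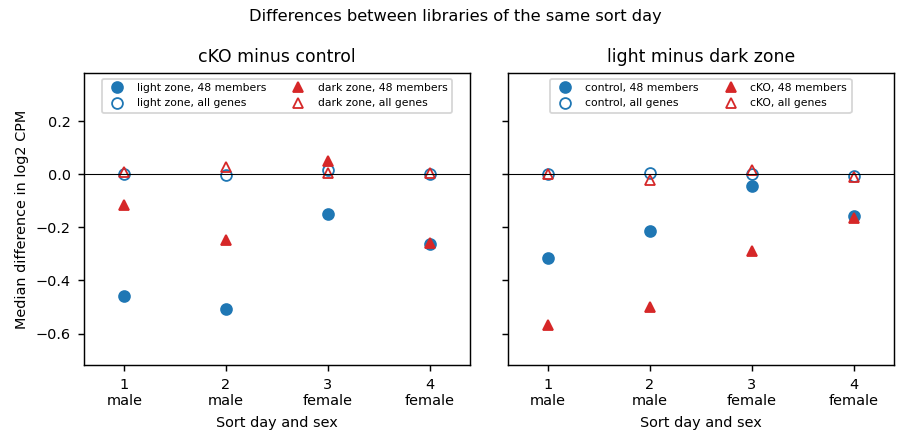
Median difference in log2 CPM between libraries of the same sort day, over the 48 genes (filled symbols) and over all genes tested (open symbols), for cKO minus control (left) and light minus dark zone (right). The 48 genes lie at -0.46 and -0.51 in the light zone on days 1 and 2, against -0.15 and -0.26 on days 3 and 4, while the medians of all genes stay near 0.

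The level itself was also tested for the sort day. Counts of both zones were summed for each of the 8 pools and fitted with day and genotype in the model (edgeR F test, 16067 genes, 0.149% passed at an adjusted p under 0.05). None of the 48 passed, but 33 of the 48 had an unadjusted p under 0.05, against 22.7% of all genes, and the smallest adjusted p was 0.0683. The lowest p-values belonged to Rfc5, Rpa1, Mcm5 and Pold1. DESeq2 was not run on the pools.

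Rfc5, a small subunit of the clamp loader, was at 214, 197, 269 and 278 CPM in control pools of days 1 to 4 and at 189, 160.4, 254 and 246 CPM in cKO pools (edgeR adjusted p = 0.0683). In both genotypes the pools of days 3 and 4 were above those of days 1 and 2. Rpa1 was at 349, 424, 464 and 502 CPM in control pools and at 298, 380.0, 452 and 444 CPM in cKO pools (edgeR adjusted p = 0.0683), with day 1 lowest in both. Mcm5 was at 689, 636, 845 and 847 CPM in control pools and at 575, 454, 764 and 662 CPM in cKO pools (edgeR adjusted p = 0.0882), with day 2 lowest in both. Pold1 was at 311, 342, 407 and 430.2 CPM against 266, 269, 364 and 333 CPM (edgeR adjusted p = 0.0897), with days 3 and 4 above days 1 and 2 in both genotypes.

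Fits on other sets of libraries gave other counts for the day. The light zone libraries alone gave 13 of the 48 past the threshold (all genes 2.05%). The dark zone libraries alone gave 0 (all genes 0.124%), with 10 of the 48 at an unadjusted p under 0.05 against 12.2% of all genes. A fit on all 16 libraries, which counts the 2 libraries of a pool as independent, gave 31 (all genes 14.8%). On the pool sums, keeping every gene with a count gave 2 of the 48 (all genes 0.957%).

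The comparison of light with dark zone cells in control mice asks how the programme is set where cells divide and where they are selected. The median log2 fold change of light over dark zone was -0.18 (all genes 0; -0.106 without LZ control library 2), and 44 of the 48 were negative against 50% of all genes. None passed (edgeR, all genes 7.49%), with the smallest adjusted p of 0.0963 for Rfc1. At an unadjusted p under 0.05 there were 4 lower genes of the 48, against 19.9% of all genes in either direction. DESeq2 called 1 lower, and its share of all genes was not counted. The sort-day block called 6 lower (all genes lower 6.53%) and a block on the pool of animals called 8 (6.28%), of which 6 were shared. Of the 48 genes, 20 were lower in the light zone on all 4 days, against 17.9% of all genes.

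The 6 genes lower with the sort-day block were Mcm5, Orc6, Tipin, Mcm6, Gins1 and Rpa2. Mcm5 was at 798, 742, 871 and 928 CPM in DZ control libraries, above its light zone level of each day (-0.32 ± 0.19, edgeR adjusted p = 0.389, blocked 0.0279). Orc6 was at 136, 111, 125 and 129.8 CPM in DZ control libraries, all above the 90.3 to 107 CPM of the light zone (-0.31 ± 0.14, edgeR adjusted p = 0.246, blocked 0.0302). Tipin was at 254, 179, 234 and 221 CPM in DZ control libraries, and its value was -0.36 ± 0.17 (edgeR adjusted p = 0.244, blocked 0.0345). These 3 genes were lower in the light zone on all 4 days.

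Mcm6 had a value of -0.36 ± 0.20 (edgeR adjusted p = 0.344, blocked 0.035), Gins1, a subunit of the GINS complex, -0.36 ± 0.18 (edgeR adjusted p = 0.28, blocked 0.0398), and Rpa2, the middle subunit of RPA, -0.27 ± 0.12 (edgeR adjusted p = 0.214, blocked 0.0439). The count of 6 fell to 0 without LZ control library 1 or 3, DZ control library 1 or 2, or day 1 or 2. It was 1 without LZ control library 4 or day 4, 2 without LZ control library 2, and 3 without DZ control library 4 or day 3 and with library size alone. It was 12 without DZ control library 3 and 11 with DESeq2 and the block. For these settings the share of all genes called was not counted.

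The largest negative values in control mice were those of Pola1, the catalytic subunit of polymerase α (-0.46 ± 0.23, edgeR adjusted p = 0.297), and Clspn (-0.42 ± 0.23, edgeR adjusted p = 0.34). The value furthest above 0 was that of Pold2 (0.23 ± 0.13, edgeR adjusted p = 0.344), at 85.3, 97.9, 116 and 115 CPM in LZ control and 89.7, 79.1, 89.6 and 93.9 CPM in DZ control libraries. Rfc2 (0.05 ± 0.09, edgeR adjusted p = 0.833) and Pole2, a subunit of polymerase ε (0.03 ± 0.20, edgeR adjusted p = 0.969), were next.

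In cKO mice the median log2 fold change of light over dark zone was -0.38 (all genes 0), and 47 of the 48 were negative against 50.1% of all genes. With no block, 4 of the 48 were lower and 0 higher (edgeR; all genes 9.09% in either direction and 4.18% lower). DESeq2 called 12 lower, and its share of all genes was not counted. At an unadjusted p under 0.05, 27 were lower, against 23.2% of all genes in either direction. The sort-day block called 32 lower (all genes lower 8.99%), the pool block 33 (8.99%), and 31 were called by both. Of the 48 genes, 40 were lower in the light zone on all 4 days, against 18.5% of all genes.

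Rfc1, the large subunit of the clamp loader, fell by 0.43 log2 units (SE 0.10, edgeR adjusted p = 0.0137). It was at 255, 226, 282 and 274 CPM in LZ cKO and 374, 310.5, 374 and 335 CPM in DZ cKO libraries, with no overlap. Orc6 fell by 0.51 (SE 0.14, edgeR adjusted p = 0.0339), with DZ cKO libraries at 116, 89.9, 131 and 119 CPM. Among its light zone libraries, only library 4, at 95.7 CPM, was above the lowest dark zone library.

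Rfc4 fell by 0.58 (SE 0.16, edgeR adjusted p = 0.0372), with DZ cKO libraries at 121, 101, 163 and 127 CPM, and only LZ cKO library 3, at 102 CPM, reached that range. Tipin fell by 0.57 (SE 0.17, edgeR adjusted p = 0.0454), with DZ cKO libraries at 164, 160.1, 217 and 205 CPM, all above the 88.1 to 155 CPM of the light zone. The span of Rfc4 overlaps the gene Eif4a2.

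The count of 4 was 0 in a fit on the 8 cKO libraries alone and 1 with every counted gene kept. It was 1 without LZ cKO library 1, DZ cKO library 4 or day 3, 2 without DZ cKO library 1 or day 2, 8 without DZ cKO library 2 and 10 without LZ cKO library 3. It was 0 without LZ cKO library 2, DZ cKO library 3, day 1 or day 4. With the block, the count was between 12 (without day 2) and 32 over the libraries and days left out, and 38 with DESeq2. Shares of all genes called were not counted in these settings.

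By role, the block called 9 of the 11 licensing genes, 4 of 6 helicase activators, 5 of 7 clamp and loader genes, 4 of 8 polymerase and primase genes, 3 of 5 lagging strand genes, 2 of 4 cyclin E and E2F genes, 2 of 4 chromatin genes and 3 of 3 fork protection genes. Mcm6 had the most negative value of all, -0.60 ± 0.20 (edgeR adjusted p = 0.0739, blocked 0.00115). It was at 459, 529, 917 and 739 CPM in LZ cKO and 955, 814, 1189 and 1039 CPM in DZ cKO libraries, with LZ library 3 alone inside the dark zone range. Mcm5 had a value near to it (-0.56 ± 0.19, edgeR adjusted p = 0.0815, blocked 0.000925), at 391, 368, 648 and 578 CPM against 744, 545, 887 and 755 CPM, with LZ libraries 3 and 4 inside the dark zone range.

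Mcm3 (-0.55 ± 0.19, edgeR adjusted p = 0.0827, blocked 0.00416) and Mcm2 (-0.44 ± 0.18, edgeR adjusted p = 0.153, blocked 0.00464), of the same ring, were also called with the block. So were the loader subunits Rfc3 (-0.48 ± 0.16, edgeR adjusted p = 0.0852, blocked 0.00534) and Rfc5 (-0.36 ± 0.19, edgeR adjusted p = 0.281, blocked 0.00436). Nearest to or above 0 were Rfc2 (0.01 ± 0.09, edgeR adjusted p = 0.966), Orc1 (-0.02 ± 0.27, edgeR adjusted p = 0.973) and E2f2 (-0.07 ± 0.09, edgeR adjusted p = 0.673).

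**Figure D4:**
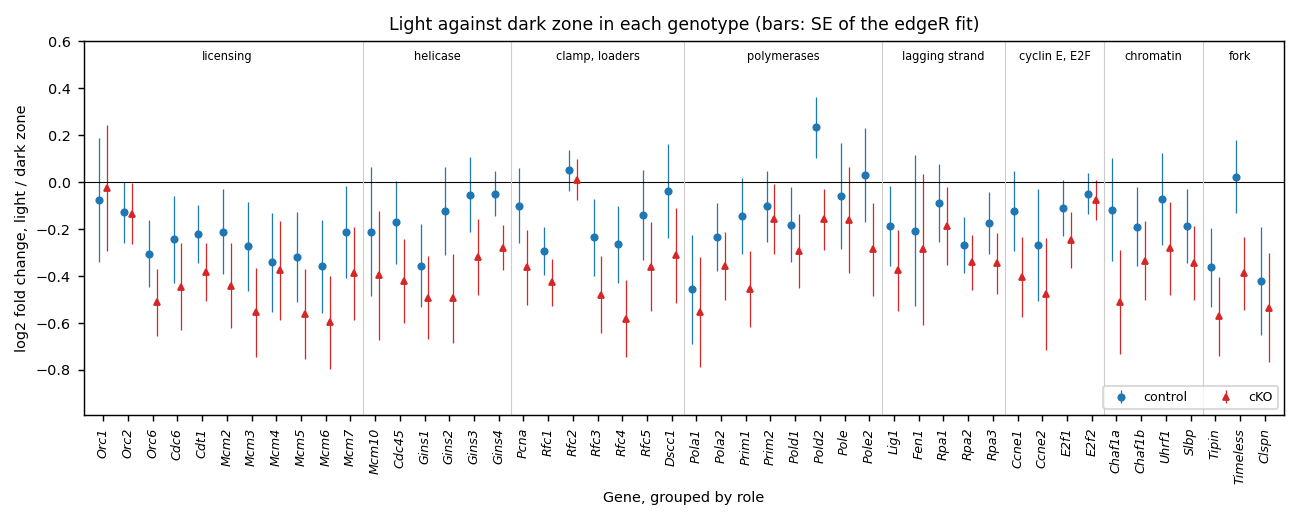
Log2 fold change of light over dark zone for each of the 48 genes, grouped by role, in control (circles) and cKO mice (triangles), with bars for the SE of the edgeR fit over 16 libraries. Values are below 0 for 44 genes in control and 47 in cKO mice, with medians of -0.18 and -0.38.

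Whether the genotype difference itself differed between the zones was tested as an interaction. None of the 48 passed, nor did any gene tested (edgeR, 0% of 15789), with either block and with DESeq2 also giving 0 of the 48. At an unadjusted p under 0.05 there was 1 of the 48 genes, Pold2 (-0.39 ± 0.18, edgeR adjusted p = 1), against 2.95% of all genes. The median was -0.19, with 47 of the 48 negative against 51% of all genes. It was -0.0754 without LZ cKO library 2, -0.0972 without DZ cKO library 3, -0.126 without LZ control library 4 and -0.327 without LZ cKO library 3. The lowest values were those of Timeless, the partner of TIPIN (-0.41 ± 0.22, edgeR adjusted p = 1), and Chaf1a (-0.40 ± 0.31, edgeR adjusted p = 1). Orc1 (0.05 ± 0.38), Orc2 (-0.01 ± 0.18) and E2f2 (-0.03 ± 0.12) were at the other end (edgeR adjusted p = 1 for each). The larger count of calls in the cKO zone comparison is therefore not shown to differ from that in control mice.

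**Figure D5:**
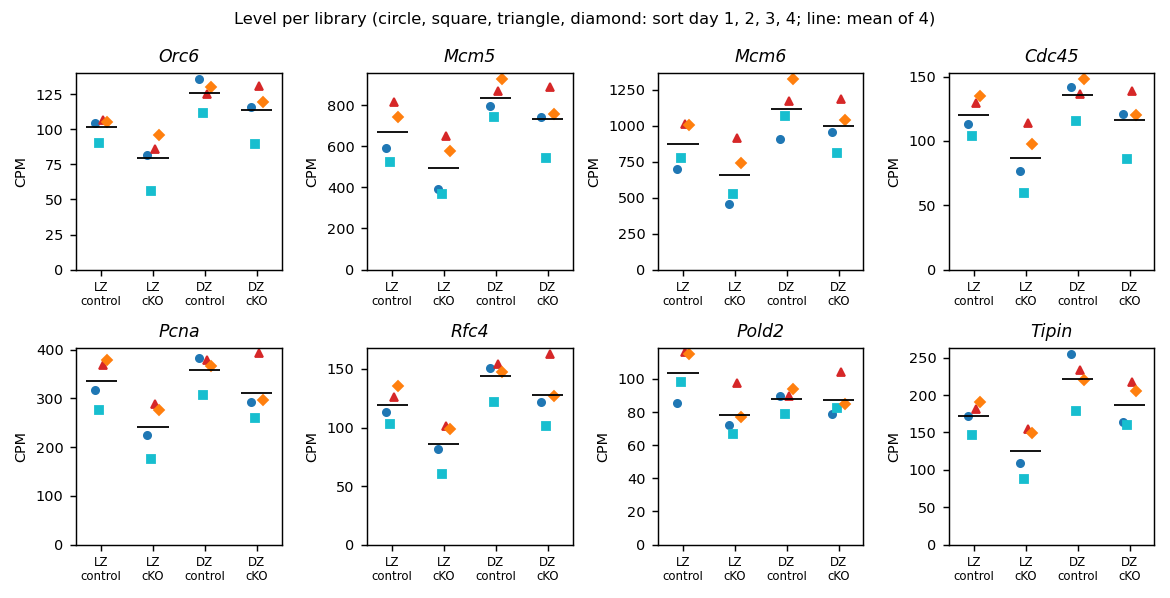
Level of 8 genes in every library (CPM, linear axes from 0), with 1 symbol per sort day and a line at the mean of 4. For Rfc4 and Tipin, LZ cKO libraries sit at 59.9 to 102 and 88.1 to 155 CPM, under LZ control libraries at 103 to 136 and 147 to 190.4 CPM but for 2 Tipin libraries.

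Other genes of the cell cycle were counted in lists that share no member with the 48. Of 31 further replication genes, 1 was called lower in LZ cKO cells, Rnaseh2c, a subunit of RNase H2, which removes ribonucleotides from DNA (-0.58 ± 0.10, edgeR adjusted p = 0.0134). In the zone comparison of cKO mice, 4 of the 31 were lower and 1 higher. Top1, topoisomerase I, was lower by -0.75 ± 0.11 (edgeR adjusted p = 0.000529), and Rnaseh2a, Rnaseh2b and Rnaseh2c by -0.38 ± 0.10, -0.48 ± 0.14 and -0.52 ± 0.10 (edgeR adjusted p = 0.0269, 0.0434 and 0.00486). Mcm9, a helicase used in repair, was the higher one (0.57 ± 0.15, edgeR adjusted p = 0.0212). In control mice Top1 alone was lower (-1.04 ± 0.11, edgeR adjusted p = 3.92e-05). In the dark zone, 0 of the 31 were called between cKO and control cells (edgeR; 4 lower at an unadjusted p under 0.05, 2 lower with DESeq2). The sort-day block called 6 of the 31 lower in LZ cKO cells, 3 in DZ cKO cells, and 4 and 8 in the zone comparisons of control and cKO mice, with 1 higher in the last.

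Among 25 other G1/S regulators, Ccnd3, the D-type cyclin of germinal centre B cells, was lower in the light zone of control (-0.44 ± 0.09, edgeR adjusted p = 0.00842) and cKO mice (-0.32 ± 0.09, edgeR adjusted p = 0.046). Cks1b, a subunit of cyclin-dependent kinases, was lower in cKO mice (-0.86 ± 0.21, edgeR adjusted p = 0.0161). The sort-day block called 4 of the 25 lower and 1 higher in control mice, and 7 lower in cKO mice. Of 20 genes of nucleotide supply, Dck, a salvage kinase, was lower in the light zone of control and cKO mice (-0.87 ± 0.15 and -0.79 ± 0.15, edgeR adjusted p = 0.00171 and 0.00319). Atic, of purine synthesis, was higher in control (0.46 ± 0.10, edgeR adjusted p = 0.00685), and Shmt2, of folate metabolism, lower in cKO mice (-0.43 ± 0.11, edgeR adjusted p = 0.0257), where the block called 9 of the 20 lower and 1 higher. In control mice the block called 3 lower and 3 higher. With genotype, edgeR without a block called 0 of these 25 and 20 genes in either zone. With the block, in LZ cKO cells, the kinase gene Cdk4 (-0.31 ± 0.10, blocked edgeR adjusted p = 0.00619) and Cks1b (-0.51 ± 0.21, 0.0277) were lower and Rb1, the retinoblastoma gene, higher (0.71 ± 0.20, 0.0324). In LZ cKO cells DESeq2 called 1 of the 25 higher and 3 of the 20 lower, and in the dark zone 0. At an unadjusted edgeR p under 0.05, 3 of the 25 genes were lower and 1 higher in LZ cKO cells, and 2 were lower in the dark zone. Of the 20 nucleotide genes, 8 were lower at that level in the light zone and 0 in the dark zone, and the block called 8 lower in LZ cKO cells.

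Of 32 genes of G2 and mitosis, 12 were lower in the light zone of control mice (median -0.59), and 18 in that of cKO mice (median -0.84), with edgeR at an adjusted p under 0.05 and 0 higher. The sort-day block called 26 and 32 lower. Cdc25b, a phosphatase that starts mitosis, was lower by -1.26 ± 0.16 in control and -1.22 ± 0.16 in cKO mice (edgeR adjusted p = 0.000183 and 0.000251). With genotype, edgeR and DESeq2 called 0 of the 32 in either zone, with medians of -0.19 in the light and -0.07 in the dark zone. At an unadjusted edgeR p under 0.05, 2 were lower in the light and 0 in the dark zone, and the block called 4 lower in LZ cKO cells. Of 23 checkpoint and repair genes of S phase, edgeR called 0 in any comparison, with a light zone median of -0.33 between cKO and control cells. In that comparison 7 were lower at an unadjusted edgeR p under 0.05, 1 was lower with DESeq2 and 5 with the block. In the dark zone both tools called 0, and 0 passed unadjusted. In the zone comparisons, 1 of the 23 was higher in control mice, and 1 was higher and 5 lower in cKO mice, at the unadjusted level, and DESeq2 called 1 higher in control and 1 lower in cKO mice. The block called 4 lower in the zone comparison of cKO mice. The difference between these lists and the 48 genes was not tested.

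Deposited PTBP1 crosslink sites were counted over the spans of the 48 genes on GRCm38.p6, in cells that are not germinal centre cells. Among the 38 genes with a strand in the reference, 24 held at least 1 site on their own strand in the list of 244659 sites that pools the replicates, or 63.2% (exact 95% interval 46% to 78.2%, counting error only), against 31.8% of 17492 coding genes. The median span was 16790 bases for these 38 genes and 16907 bases for coding genes. Expression in the cultured cells, which a site needs, was not measured here. Of the sites in these 38 genes, 600 lay on the gene's strand and 3 on the other (99.5%). Of the 10 genes without a strand in the reference, 8 held a site on either strand.

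Most of the sites were thin. The pooled list also held sites that were in none of the 5 replicate lists. This was so for all sites of Mcm3 (26), Cdc6 (14), Mcm2 (13), Orc1 (8), Mcm7 (1) and Rpa2 (1). Among the genes without a strand, it was so for all sites on either strand of Pole (10), Gins2 (2) and Dscc1 (1). Sites with at least 5 cDNAs stood in 15.8% of the 38 genes and 6.72% of coding genes, and sites found in at least 2 of the 5 replicate lists in 7.89% and 6.1%. Pola1, which spans 327622 bases, held 230 sites, with sites in 4 of the replicate lists. Prim2, without a strand in the reference, held 82 sites on either strand. Rfc1 held 50, Mcm5 46, Rpa1 39 and E2f2 34 sites. Orc6 held 6 sites, among them the site with the most cDNAs of the 48 genes' sites, 8, and Rfc4 held 2 and Pcna 4. A span of this kind contains introns, and the replicate lists held 6211 to 45505 sites, so a gene with no listed site is not shown to be unbound.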

How the data were processed

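mRNA of sorted germinal centre B cells was measured in 16 libraries. Per the labels' protocols, SMART-Seq v4 made cDNA from the poly(A) fraction of 2 ng of RNA, and 0.5 ng of cDNA went through 8 PCR cycles. The deposited values are raw counts per Ensembl gene. The submitters' processing notes name HISAT2, HTSeq and Trim Galore 0.4.2, with the GRCm38 build, and do not state whether strand was used. Lines that name no gene held 41.4% to 49.8% of entries and were left out. The deposited iCLIP score is a signed cDNA count per crosslink site, positive on the plus strand, per the file headers.

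The counts entered 1 fit of edgeR 4.0.16 (R 4.3.3) over 16 libraries with 4 group means and no covariate. Genes were kept by filterByExpr at a minimum count of 10 and scaled by TMM, and the robust quasi-likelihood tests were two-sided with Benjamini-Hochberg adjustment over 15789 genes. The biological coefficient of variation was 40.3%. Differences are log2 fold changes ± SE. For edgeR, the SE was derived as the absolute log2 fold change divided by the square root of the test's F value. CPM values, which are not scaled by gene length, are compared only within a gene. P-values of the fits on 16 libraries measure the spread between libraries of a group, or what is left of it after a block. Except with the pool block, these fits count the 2 libraries of a pool as independent. Per the labels, a replicate number marks a sort day, and both zones of a pool come from the same mice. The numbers thus pair the libraries, and the correlation of their deviations from the group means was 0.0944 to 0.39. The fit with the day as a block is printed where it changes a call. No 2 libraries of the same group agreed within sampling noise, and pairs across groups were not compared. Alternatives covered scaling, filters, DESeq2 1.42.0, blocks, libraries left out and single sexes. The scripts were tested on simulated data with larger fold changes and less spread than here, and without day or pool effects. That test does not show how well differences of the sizes reported here are called.

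The members, lists and tests were chosen with earlier results of these data known. Genes named per comparison were those called (up to 10 by adjusted p), the 3 highest and 3 lowest fold changes, and up to 6 called only with the block. Levels per library follow for the gene of highest CPM in each role and for some of these, and genes of other lists are named only where called (up to 3 per list and direction). Prim1, Rfc2, Ccne1, E2f1, Slbp and Tipin in the light zone genotype comparison, Cdc25b, and Cd68, Cdk4, Cks1b and Rb1 with the block, were named after their values were seen.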

Additional observations from a re-analysis of the deposited data

Results flagged for a closer look

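Orc6 was at 90.3 CPM in LZ control library 2, while the other 3 LZ control libraries lay between 105 and 107 CPM. The gap of this library to its nearest neighbour exceeded Dixon's 95% critical value of 0.829 for 4 samples. Groups of 4 libraries were tested in this way 96 times, over genes whose levels are printed and the summed level, and chance flags about 1 group in 20. This 1 group was the only one past the value.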

How the results depend on the processing

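Counts of genes called lower changed with the block and with single libraries. The numbers pair the libraries, and the block called 20, 6 and 32 genes lower where the fit without it called 0, 0 and 4 (LZ cKO against control, light against dark zone in control, and in cKO mice), and the pool block 8 and 33 in the zone comparisons. For the interaction both blocks called 0, and the sort-day block called 0 between genotypes in the dark zone, while genotype could not be fitted within pools. DESeq2 without a block called 1 in the zone comparison of control mice and 12 in that of cKO mice. In the latter, every counted gene kept gave 1, the 8 libraries alone 0, males 7 (median -0.568) and females 1. Chosen after the data were seen, library size alone with the block gave 12 in LZ cKO cells and 3 in the control zone comparison, where DESeq2 with the block gave 11. With 1 library or day left out, counts of genes called lower ran from 0 to 10 in the cKO zone comparison and 0 to 1 in that of control mice without the block, and from 0 to 20, 0 to 12 and 12 to 32 with it, in the order above. Medians ran from -0.467 to -0.244 (LZ genotype), -0.239 to -0.0633 (DZ genotype), -0.236 to -0.106 (control zones), -0.505 to -0.257 (cKO zones) and -0.327 to -0.0754 (interaction). For the sort day, 16 libraries gave 31 genes, every counted gene 2 and the light zone alone 13. The share of genes with crosslink sites was 15.8% at 5 cDNAs and 7.89% at 2 lists, and that with E2F words 31.6% for TTTCCCGC and TTTGGCGC alone (1.8% of all genes). For genotype and zone comparisons, the share of all genes called was not counted with DESeq2, in single sexes or with libraries left out. Nor was it counted with a block and other scaling. The cause of these shifts was not tested.

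The log2 fold changes of some genes near 0 changed sign. For the interaction, Orc2 was at 0.0019 with upper-quartile scaling, 0.0256 with library size alone, 0.00188 with the replicate block and 0.137 in males, Orc1 at -0.137 in males and E2f2 at 0.0342 in females. For the cKO zone comparison, Orc1 was at 0.0123 with library size alone and 0.117 in females, and Rfc2 at -0.0242 in females. Pole2 was at -0.0842 in males for the control zone comparison. In females, Pole and Chaf1b were at 0.122 and 0.116 for LZ cKO against control and Chaf1a at -0.0883 for the dark zone. With 1 library or day left out, LZ cKO values ran from -0.0272 to 0.0846 for Orc2, -0.242 to 0.131 for Pole and -0.253 to 0.0505 for Chaf1b, and dark zone values from -0.0565 to 0.184 for Chaf1a, -0.0132 to 0.144 for Chaf1b and -0.097 to 0.284 for Pole. Control zone values ran from -0.0343 to 0.133 for Pole2 and -0.0054 to 0.084 for Rfc2, and cKO zone values from -0.226 to 0.198 for Orc1 and -0.0515 to 0.0765 for Rfc2. Interaction values ran from -0.17 to 0.274 for Orc1, -0.0977 to 0.158 for Orc2 and -0.0937 to 0.0242 for E2f2. The cause was not tested.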
